A study of Homo sapiens with 6 samples.

Results

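The SR proteins and the heterogeneous nuclear ribonucleoproteins (hnRNPs) were examined at the level of mRNA in T84, a long-established line of human colorectal cancer cells. Members were the protein coding genes named SRSF with a number and those whose name begins with HNRNP, which gave 39 of the 58735 genes in the deposited table, 12 SR and 27 hnRNP genes. The series holds 6 RNA-seq libraries, 3 from T84 cells with a hairpin against ACSL4 (shACSL4) and 3 from T84 cells with a control hairpin (shControl). All were grown in DMEM/F12 with serum and no further treatment is named, and libraries were made from RNA depleted of ribosomal RNA. The genotype label of the shControl cells is WT and that of the shACSL4 cells is a knockdown, whereas the text of the series speaks of knockout cells, so the groups are called here by their hairpins. How many hairpins were used, their sequences, and whether libraries within a group stem from different cultures could not be read from the labels. The p-values below therefore measure the spread between these libraries, which may be technical. The title of the series places the comparison in work on ACSL4, an enzyme that activates long-chain fatty acids, and immunosuppression in colorectal cancer.

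SR proteins carry RNA recognition motifs and a tail rich in arginine and serine. They bind exonic enhancer sequences, help U1 and U2 small nuclear ribonucleoproteins find splice sites, and shuttle or stay in nuclear speckles according to how strongly SRPK and CLK kinases phosphorylate the tail. The hnRNPs coat nascent transcripts and often act against SR proteins by binding silencer sequences, and several of them also take part in mRNA export, stability and translation. Both families tune their own levels through alternative exons or introns that send a share of their transcripts to nonsense-mediated decay.

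The libraries held between 14740383 and 17620630 counts assigned to genes. Levels are given as CPM, counts scaled to the same library total with factors from edgeR, and as the deposited FPKM where genes are set against each other per length. ACSL4 (ENSG00000068366, GRCh38 X:109624244-109733403, minus strand) averaged 10.1 ± 0.976 CPM in shACSL4 libraries and 73.1 ± 1.99 CPM in shControl libraries (SD, n = 3 each), so that 13.9% of the control level was left. All 8 colon epithelium markers of a fixed list were detected above the filter, with a summed level of 7118 to 8515 CPM in shACSL4 libraries and 5870 to 7105 CPM in shControl libraries, and 5 of them rose while EPCAM fell. Marker lists of fibroblasts, leukocytes and endothelium summed to 0.626 to 1.51, 5.01 to 7.70 and 0.704 to 1.01 CPM in shACSL4 libraries, against 1.84 to 3.09, 16.5 to 27.7 and 0.738 to 1.247 CPM in shControl libraries, with CD3E at 0 in every library. Their part in the results below was not tested.

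Of the 39 members, 33 had enough counts to be tested, 11 SR and 22 hnRNP genes. The other 6 were SRSF12, the readthrough HNRNPUL2-BSCL2 and the HNRNPC copies HNRNPCL1, HNRNPCL2, HNRNPCL3 and HNRNPCL4. SRSF12 had 2, 1 and 3 counts in shACSL4 libraries and 1, 0 and 1 in shControl libraries. HNRNPUL2-BSCL2 had 1 count in a single shControl library, and the HNRNPC copies had no count in any library. Of the 100-base windows of HNRNPUL2-BSCL2, 97.5% occurred in transcripts of other genes on the same strand. For the HNRNPC copies these shares were 37.5 to 87.2%. The counts of these 5 genes are uncertain to the extent that such reads were left out or given to the other gene. A count of 0 allows up to 3 counts, which is 0.171 to 0.201 CPM at these depths, counting error only.

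Differences between shACSL4 and shControl cells were small for most SR and hnRNP genes. With edgeR's quasi-likelihood test and Benjamini-Hochberg adjustment over all 15694 genes tested, 12 of the 33 members passed an adjusted p of 0.05, which is 36.4%, beside 47.2% of all genes. Of these, 10 rose and 2 fell, where 24.0% of all genes rose and 23.1% fell. In bulk RNA, fewer cells that express a gene and less RNA per cell cannot be told apart. Of the coding genes tested 51.7% were called, 25.9% higher and 25.8% lower. Among the 31 members with a mean of at least 500 counts 11 were called, beside 54.6% of the coding genes with as many counts. The log2 fold changes (shACSL4 over shControl) of the 33 ran from -0.32 to 1.26, with a median of 0.06 and a median absolute value of 0.18, while these medians were -0.05 and 0.26 over coding genes averaging 500 counts or more and 0.01 and 0.35 over all genes tested. A change beyond 1 on the log2 scale was called in 1 member, HNRNPA1L2, beside 11.9% of all genes. The libraries of both groups did not overlap in CPM in 20 of the 33 members (60.6%), 12 called and 8 not called, beside 55.1% of all genes.

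**Figure D1:**
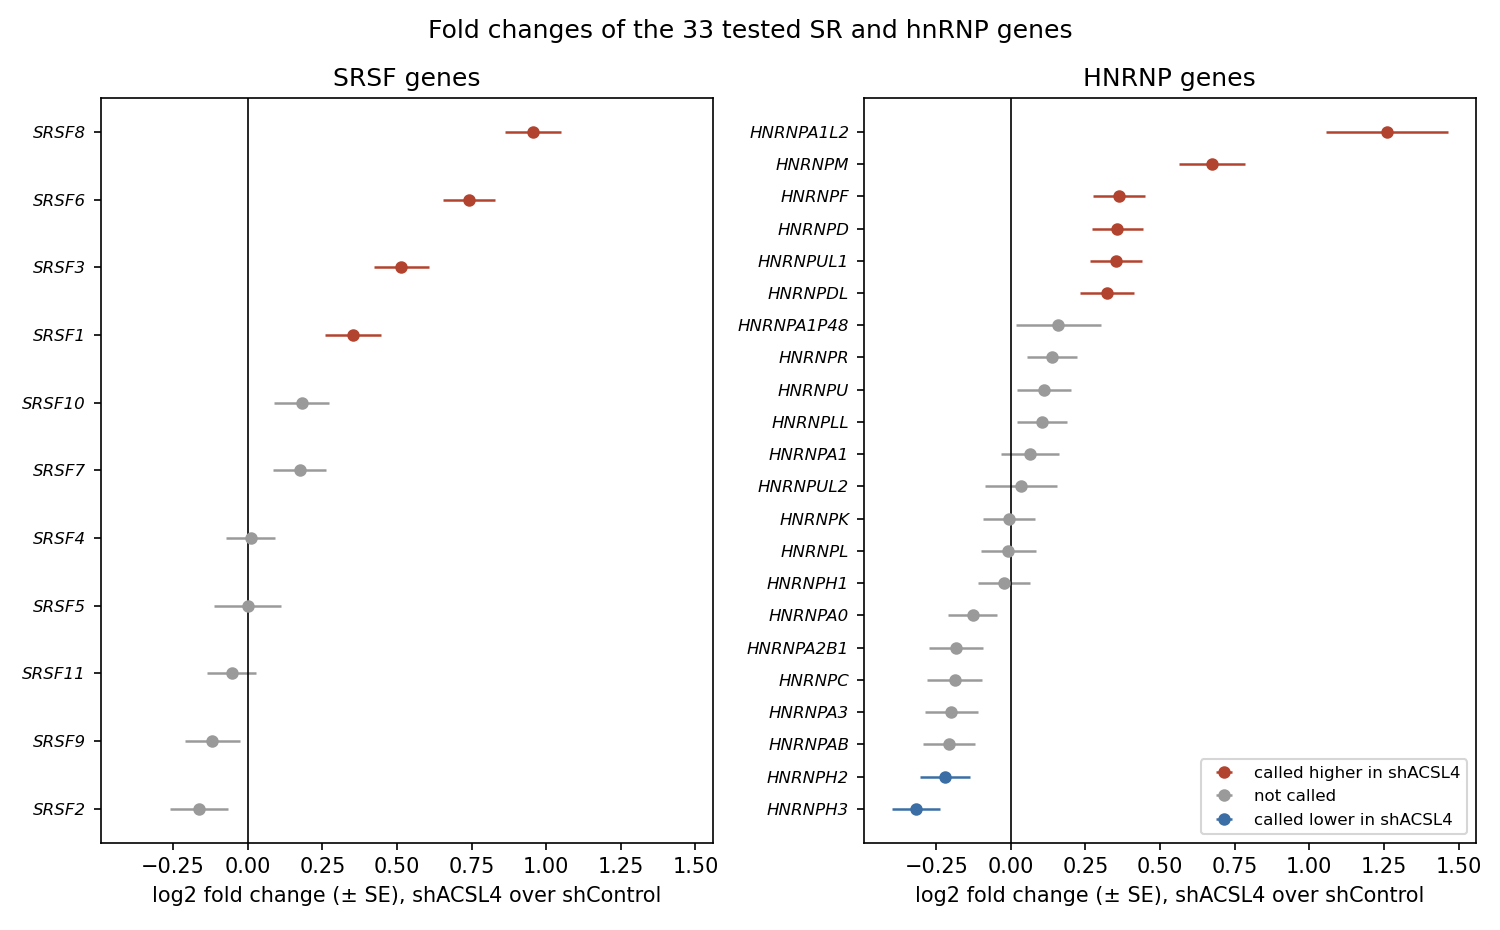
Log2 fold change of shACSL4 over shControl for the 33 tested SR and hnRNP genes, with its standard error, from edgeR. SRSF8, SRSF6, SRSF3 and SRSF1 among SR genes and HNRNPA1L2 and HNRNPM among hnRNP genes lie farthest above 0, HNRNPH3 at -0.32 lies farthest below, and 28 of the 33 lie within 0.5 of 0.

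The split of calls moved with the scaling. Scaling by library size alone shifts the median of all genes to 0.13 from 0.01, and 15 members were then higher and 1 lower, with a member median of 0.19, while the share of higher calls over all genes was 65.6% in place of 50.9%. Changes below are on the edgeR scale.

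Of the 11 SR genes tested, 4 rose in shACSL4 cells, SRSF8, SRSF6, SRSF3 and SRSF1, and none fell. That is 36.4% called, beside 47.2% of all genes (24.0% higher and 23.1% lower), with a median log2 fold change of 0.17 over the 11. All 4 calls held in each of the 15 alternatives computed, and in all 4 genes the shACSL4 libraries lay above every shControl library in CPM. Over all genes tested, the groups did not overlap in 55.1%.

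SRSF8 (ENSG00000263465, GRCh38 11:95067197-95071224, plus strand), a close relative of SRSF2, had the largest change of the SR genes. It had 68.5, 79.1 and 73.5 CPM in shACSL4 libraries, against 41.4, 37.5 and 35.0 CPM in shControl libraries, a log2 fold change of 0.96 (SE 0.09, edgeR adjusted p = 4.61e-07). The lowest shACSL4 library thus lay well above the highest shControl library. SRSF2 itself, which binds exonic enhancers and also acts in transcription elongation, had 123, 109 and 140.1 CPM in shACSL4 libraries, against 129, 149 and 139 CPM in shControl libraries. These groups overlapped, and the log2 fold change was -0.16 (SE 0.10, edgeR adjusted p = 0.187). Ratios of counts, here and below, were formed for chosen pairs of members only. How often ratios of other pairs of genes do not overlap between the groups was not computed. Within each library, SRSF8 counts came to 60.1 ± 10.8% of SRSF2 counts in shACSL4 cells and 27.5 ± 3.95% in shControl cells (SD, n = 3 each), without overlap. The coding sequences of the pair are alike in 554 of 654 aligned bases (84.7%), and their first 90 coding bases are shown because they bear on whether reads of one gene can be told from those of the other. The letters come from GENCODE 29 transcripts on GRCh38, SRSF2 from 17:76737071-76737160 on the minus strand and SRSF8 from 11:95067227-95067316 on the plus strand, 5′ to 3′. Capitals in SRSF8 mark the 10 bases that differ from SRSF2.
SRSF2: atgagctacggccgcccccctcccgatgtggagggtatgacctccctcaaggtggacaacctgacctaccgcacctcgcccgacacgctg
SRSF8: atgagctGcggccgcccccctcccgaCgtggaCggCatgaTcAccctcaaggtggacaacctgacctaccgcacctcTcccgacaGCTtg
Of the 100-base windows of the SRSF8 transcript, 0.174% occurred in a transcript of another gene on the same strand.

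SRSF6 (ENSG00000124193, 20:43457928-43464247, plus strand), also known as SRp55 and a regulator of alternative exons in epithelial cells, had 222, 219 and 221 CPM in shACSL4 libraries, against 136, 141 and 120.1 CPM in shControl libraries. The shACSL4 libraries lay within a few CPM of each other, and all stood above the shControl libraries. The log2 fold change was 0.74 (SE 0.09, edgeR adjusted p = 3.13e-06). Its nearest relatives SRSF4 and SRSF5, known as SRp75 and SRp40, did not pass the test, with log2 fold changes of 0.01 (SE 0.08, edgeR adjusted p = 0.935) and -0.00051 (SE 0.11, edgeR adjusted p = 0.998). SRSF6 counts came to 199 ± 5.82% of SRSF4 counts in shACSL4 libraries and 119.6 ± 9.83% in shControl libraries, and to 144 ± 19.6% of SRSF5 counts in shACSL4 libraries and 86.6 ± 17.4% in shControl libraries (SD, n = 3 each). Neither ratio overlapped between the groups. By FPKM, SRSF6 stood at place 11 among the 39 members in shACSL4 cells and at place 20 in shControl cells.

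SRSF3 (ENSG00000112081, 6:36594353-36605600, plus strand), the smallest SR protein, which also acts in mRNA export and polyadenylation, had 377, 403 and 418 CPM in shACSL4 libraries, against 264, 311 and 264 CPM in shControl libraries. It was the most abundant SR gene by CPM in both groups, and its log2 fold change was 0.51 (SE 0.09, edgeR adjusted p = 0.000245). SRSF7, its closest relative and likewise an export adaptor, averaged 197 ± 17.7 CPM in shACSL4 libraries and 175 ± 7.29 CPM in shControl libraries (SD, n = 3 each), with groups that did not overlap and a change that did not pass the test (0.17, SE 0.09, edgeR adjusted p = 0.119). SRSF3 counts came to 203 ± 9.30% of SRSF7 counts in shACSL4 libraries and 160.1 ± 12.8% in shControl libraries, without overlap.

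SRSF1 (ENSG00000136450, 17:58003360-58007346, minus strand), the founding SR protein and a known oncoprotein, had 96.5, 89.2 and 89.0 CPM in shACSL4 libraries, against 69.3, 80.8 and 65.03 CPM in shControl libraries. The groups stood apart by less than in the other 3, with a log2 fold change of 0.35 (SE 0.09, edgeR adjusted p = 0.00513). Its neighbourhood moved the other way, as the median log2 fold change of the 51 nearest coding genes tested on the chromosome was -0.38, and relative to them the change of SRSF1 was 0.73. Of the 100-base windows of SRSF1 transcripts, 45.7% also occurred in transcripts of AC015813.2, a coding gene that overlaps it by 3887 bases on the same strand and had 0 counts in every library, so the SRSF1 count is uncertain to the extent that reads common to both were left out or split. SRSF1 and HNRNPA1 are textbook opponents in the choice between competing splice sites. SRSF1 counts came to 9.40 ± 0.495% of HNRNPA1 counts in shACSL4 libraries and 7.69 ± 0.161% in shControl libraries (SD, n = 3 each), and SRSF6 counts to 22.7 ± 0.603% in shACSL4 libraries and 14.2 ± 0.534% in shControl libraries. Both ratios were higher in every shACSL4 library than in any shControl library.

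The 7 SR genes that did not pass the test lay between -0.16 and 0.18 on the log2 scale. Besides SRSF2, SRSF4, SRSF5 and SRSF7 these were SRSF9 (-0.12, SE 0.09), SRSF11 (-0.05, SE 0.08) and SRSF10 (0.18, SE 0.09), the last a splicing repressor when dephosphorylated after heat shock, with edgeR adjusted p of 0.311, 0.620 and 0.118. The SRSF9 locus overlaps GATC by 2082 bases on the opposite strand and that of SRSF2 overlaps MFSD11 by 1510 bases. Their mean counts came to 43.5% and 17.3% of those of the SR gene. Of the 100-base windows of SRSF9 and SRSF2 transcripts, 41.6% and 23.1% occurred in transcripts of other genes on the opposite strand. Since neither the counting tool nor its strand setting is named, reads of such partners cannot be told apart.

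Of the 22 hnRNP genes tested, 6 rose and 2 fell, again 36.4%, beside 47.2% of all genes (24.0% higher and 23.1% lower). The 22 had a median log2 fold change of 0.05 and a median absolute value of 0.19. The genes that rose were HNRNPA1L2, HNRNPM, HNRNPF, HNRNPD, HNRNPUL1 and HNRNPDL, and those that fell were HNRNPH2 and HNRNPH3.

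HNRNPM (ENSG00000099783, 19:8444767-8489114, plus strand), which binds GU-rich introns and is known for steering CD44 exon choice against the epithelial regulator ESRP1, had the largest change of the abundant hnRNP genes. It had 363, 357 and 337 CPM in shACSL4 libraries, against 223, 259.8 and 179.8 CPM in shControl libraries, with a log2 fold change of 0.67 (SE 0.11, edgeR adjusted p = 0.000107). The shControl libraries spread more widely than the shACSL4 libraries, yet none reached the lowest of them. ESRP1 itself averaged 283 ± 12.3 CPM in shACSL4 libraries and 265 ± 8.64 CPM in shControl libraries (SD, n = 3 each) and did not pass the test (0.10, SE 0.08, edgeR adjusted p = 0.368), while its relative ESRP2 rose by 0.35 (SE 0.09, edgeR adjusted p = 0.00428). ESRP2 was named after its value was seen.

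The G-run binding proteins HNRNPF, HNRNPH1, HNRNPH2 and HNRNPH3, close relatives of each other, moved in different directions. HNRNPF (ENSG00000169813, 10:43385617-43409166, minus strand) had 427, 423 and 421 CPM in shACSL4 libraries, against 333, 349 and 306 CPM in shControl libraries, a log2 fold change of 0.36 (SE 0.09, edgeR adjusted p = 0.00246). HNRNPH3 (ENSG00000096746, 10:68331174-68343191, plus strand) had 107, 108 and 109 CPM in shACSL4 libraries, against 129, 141 and 134 CPM in shControl libraries, a log2 fold change of -0.32 (SE 0.08, edgeR adjusted p = 0.00394). HNRNPH2 (ENSG00000126945, X:101408295-101414133, plus strand) had 92.8, 87.7 and 87.9 CPM in shACSL4 libraries, against 102, 112 and 99.0 CPM in shControl libraries, a log2 fold change of -0.22 (SE 0.08, edgeR adjusted p = 0.0388). In each of the 3 genes the groups did not overlap, with HNRNPF above and the pair HNRNPH2 and HNRNPH3 below the shControl libraries. HNRNPH1, the most abundant of the H genes by CPM, averaged 355 ± 23.6 CPM in shACSL4 libraries and 361 ± 13.2 CPM in shControl libraries and did not pass the test (-0.02, SE 0.09, edgeR adjusted p = 0.856). HNRNPF counts came to 119.6 ± 7.87% of HNRNPH1 counts in shACSL4 libraries and 91.5 ± 9.30% in shControl libraries (SD, n = 3 each), without overlap. The HNRNPH2 call was lost with library size alone (-0.10, edgeR adjusted p = 0.306), without a filter on low counts (-0.23, 0.0678), on leaving out any library but shControl 3 (adjusted p 0.0692 to 0.128), and relative to its 51 neighbouring coding genes, whose median was -0.23 (0.0050, edgeR adjusted p = 0.970). The coding genes around HNRNPF had a median of 0.51, relative to which its change was -0.15 (edgeR adjusted p = 0.180), and those around HNRNPH3 a median of 0.29, relative to which its change was -0.61, against -0.20 with library size alone (both called).

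**Figure D2:**
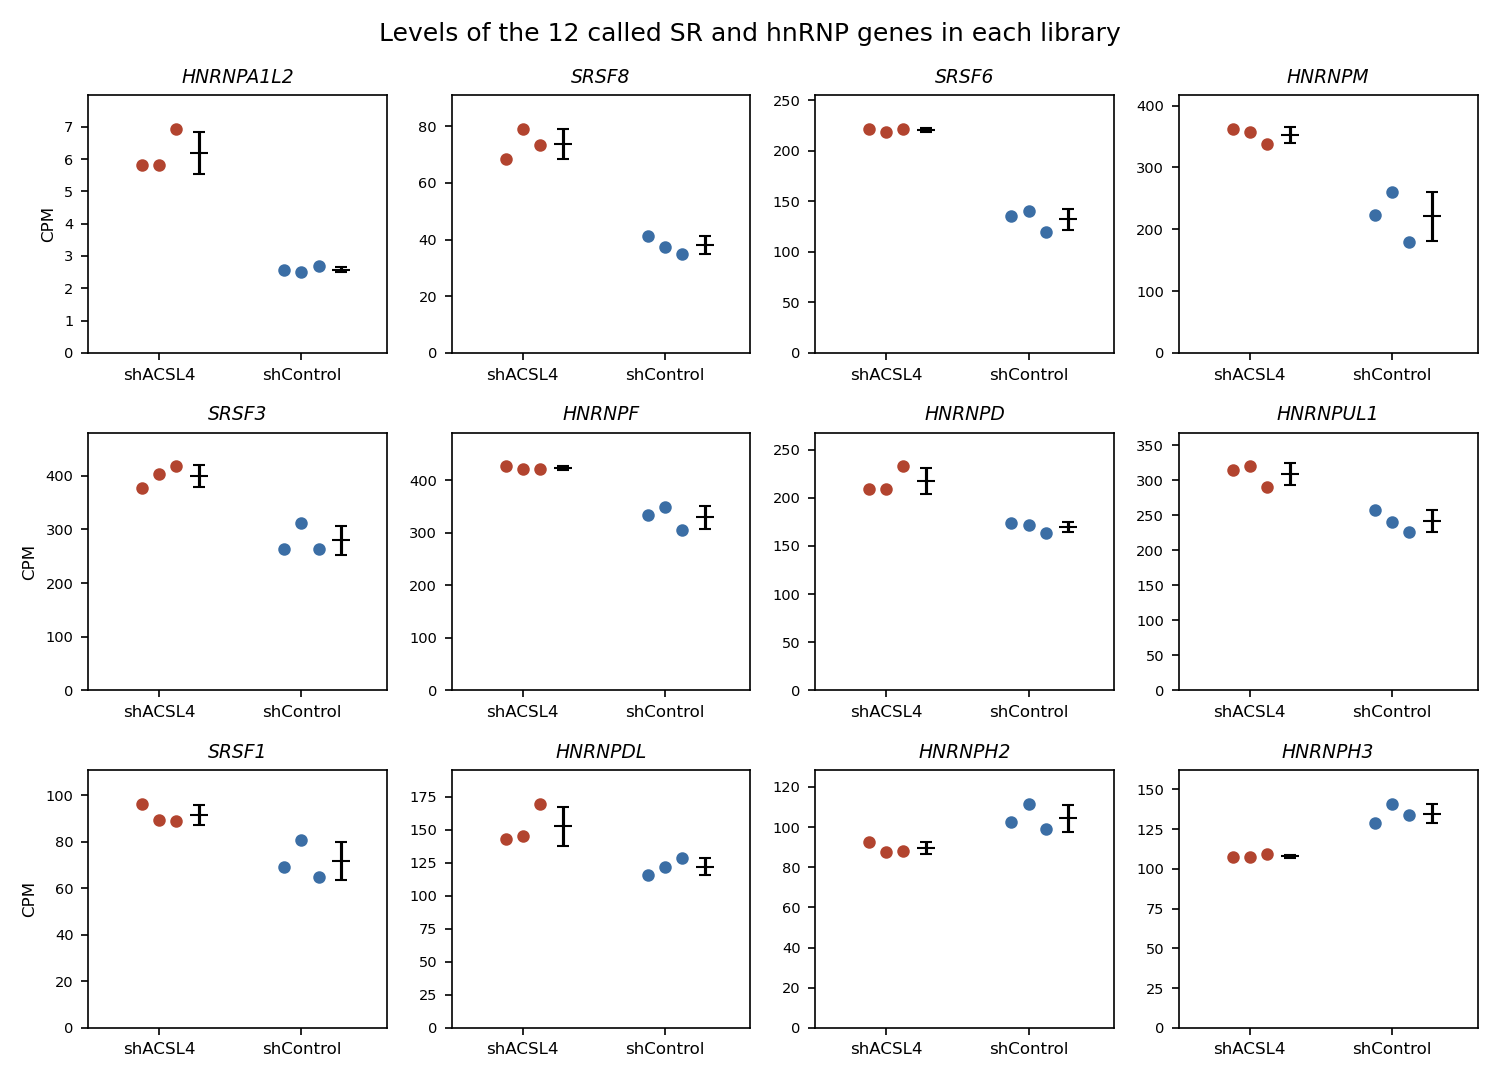
CPM of the 12 called SR and hnRNP genes in each library, with the mean and SD of each group beside the points (n = 3 each). In all 12 panels the shACSL4 and shControl libraries do not overlap, beside 55.1% of all genes tested. HNRNPH2 and HNRNPH3 are the panels in which shACSL4 libraries lie lower.

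HNRNPD and HNRNPDL lie next to each other on chromosome 4 and encode related proteins that bind AU-rich elements, HNRNPD being the decay factor AUF1. HNRNPD (ENSG00000138668, 4:82352498-82374503, minus strand) had 209, 209 and 233 CPM in shACSL4 libraries, against 174, 171 and 163 CPM in shControl libraries, a log2 fold change of 0.36 (SE 0.08, edgeR adjusted p = 0.00236). HNRNPDL (ENSG00000152795, 4:82422564-82430408, minus strand) had 143, 145 and 169.7 CPM in shACSL4 libraries, against 116, 122 and 129 CPM in shControl libraries, a log2 fold change of 0.32 (SE 0.09, edgeR adjusted p = 0.00779). Both stood higher in every shACSL4 library, and the ratio of their counts overlapped between groups, at 143 ± 4.82% in shACSL4 libraries and 139 ± 11.8% in shControl libraries (SD, n = 3 each). The HNRNPDL call was lost without shControl 1 (0.28, edgeR adjusted p = 0.0529) and relative to the neighbouring genes (0.22, 0.0584).

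HNRNPUL1 (ENSG00000105323, 19:41262496-41307598, plus strand), a relative of HNRNPU with a role in the DNA damage response, had 315, 319.9 and 291 CPM in shACSL4 libraries, against 257, 241 and 227 CPM in shControl libraries. The groups did not overlap, and the log2 fold change was 0.35 (SE 0.09, edgeR adjusted p = 0.00323). The median of its neighbours was 0.32, and relative to them the change was 0.03 (edgeR adjusted p = 0.815). Its locus overlaps TGFB1 by 6012 bases on the opposite strand, and TGFB1 counts came to 23.2% of HNRNPUL1 counts on average. Of the 100-base windows of HNRNPUL1 transcripts, 0.268% occurred in transcripts of other genes on the opposite strand. For HNRNPU this share was 12.8%, so the counting limit given for SRSF9 bears on HNRNPU as well. HNRNPU, which organises chromatin as scaffold attachment factor A, and HNRNPUL2 did not pass the test (0.11, SE 0.09, and 0.03, SE 0.12, with edgeR adjusted p of 0.336 and 0.842).

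HNRNPA1L2 (ENSG00000139675, 13:52642425-52643796, plus strand), an intronless copy of HNRNPA1, had the largest fold change of all members at the lowest level of the 33. It had 91, 102 and 110 counts in shACSL4 libraries, against 43, 40 and 40 counts in shControl libraries, which is 5.82, 5.80 and 6.94 CPM against 2.55, 2.51 and 2.68 CPM. The groups stood far apart, with a log2 fold change of 1.26 (SE 0.20, edgeR adjusted p = 9.04e-05). HNRNPA1 itself, which binds silencer sequences, had 971, 995 and 957 CPM in shACSL4 libraries, against 919, 1028 and 849 CPM in shControl libraries, with overlapping groups and a change that did not pass the test (0.06, SE 0.10, edgeR adjusted p = 0.611). HNRNPA1L2 counts were 0.636 ± 0.0780% of HNRNPA1 counts in shACSL4 libraries and 0.279 ± 0.0361% in shControl libraries (SD, n = 3 each). A further copy that the files list as coding, HNRNPA1P48, averaged 12.3 ± 0.846 CPM in shACSL4 libraries and 10.98 ± 1.61 CPM in shControl libraries, and did not pass the test (0.16, SE 0.14, edgeR adjusted p = 0.380). The copies are nearly identical to HNRNPA1, HNRNPA1L2 in 906 of 921 aligned coding bases (98.4%) and HNRNPA1P48 in 779 of 786 (99.1%). Of the 100-base windows, 31.6% of those of HNRNPA1L2, 36.1% of HNRNPA1P48 and 17.5% of HNRNPA1 occurred in transcripts of other genes on the same strand, so the counts of these 3 genes are uncertain to the extent that the counting split such reads.

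The other 14 hnRNP genes did not pass the test, with log2 fold changes from -0.21 to 0.16. Among them are the most abundant members. In 7 of the 14 the libraries of the groups did not overlap, beside 55.1% of all genes tested. Of these 7, 5 were lower in shACSL4 cells and 2 higher. HNRNPA2B1, an RNA sorting protein and a reader of methylated adenosine, averaged 963 ± 36.7 CPM in shACSL4 libraries and 1094 ± 9.63 CPM in shControl libraries (SD, n = 3 each), a log2 fold change of -0.18 (SE 0.09, edgeR adjusted p = 0.102). HNRNPC, which binds uridine tracts and keeps Alu sequences out of mRNA, averaged 517 ± 7.70 CPM in shACSL4 libraries and 589.5 ± 55.5 CPM in shControl libraries (-0.19, SE 0.09, edgeR adjusted p = 0.105). HNRNPAB at -0.21, HNRNPA3 at -0.20 and HNRNPA0 at -0.13 had adjusted p of 0.0601, 0.0741 and 0.219 with edgeR. All 5 were lower in every shACSL4 library than in any shControl library, but none passed the threshold. HNRNPLL, known for CD45 splicing in T cells, at 0.10 and HNRNPR at 0.14 did not overlap either and were higher, with adjusted p of 0.329 and 0.194 with edgeR. HNRNPK, which binds C-rich sequences, at -0.01 (SE 0.09) and HNRNPL, which binds CA repeats, at -0.01 (SE 0.09) had overlapping groups. The HNRNPA2B1 locus overlaps NFE2L3 by 14069 bases and CBX3 by 368 bases on the opposite strand. These lengths are of whole loci, introns included. Of the 100-base windows of HNRNPA2B1 transcripts, 2.75% occurred in transcripts of other genes on the opposite strand. The counting limit given for SRSF9 thus applies to a smaller part of HNRNPA2B1.

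Per length, the members spanned a ratio of 131 between the highest and the lowest of the 33 in shControl cells. HNRNPAB led in both groups with 210.5 ± 2.73 FPKM in shACSL4 libraries and 245 ± 16.2 FPKM in shControl libraries (SD, n = 3 each), followed by HNRNPA1 with 189 ± 4.23 FPKM in shACSL4 libraries and 182 ± 18.8 FPKM in shControl libraries. HNRNPF at 128 ± 0.835 FPKM came next in shACSL4 cells and HNRNPA2B1 at 118 ± 1.87 FPKM in shControl cells. HNRNPF and HNRNPK, at 101 ± 7.36 and 100.4 ± 5.27 FPKM in shControl cells, were neighbours in that order whose spreads overlap. The highest SR genes per length were SRSF3 at 55.3 ± 2.92 FPKM in shACSL4 cells and SRSF2 at 45.9 ± 3.41 FPKM in shControl cells. HNRNPUL2, HNRNPA1P48 and HNRNPA1L2 closed the order in both groups, with 6.64, 6.29 and 4.45 FPKM in shACSL4 cells and 6.55, 5.69 and 1.87 FPKM in shControl cells. Of the 100-base windows of HNRNPUL2 transcripts, 42.5% also occurred in HNRNPUL2-BSCL2. The place of HNRNPUL2 is therefore uncertain to the extent that reads common to both were left out. The order depends on the deposited gene length, 2144 bases for HNRNPAB, 5093 for HNRNPA1 and 9267 for HNRNPA2B1. By mean CPM in shControl libraries, HNRNPA2B1 (1094) and HNRNPA1 (932) stood above HNRNPAB (528). Whether these lengths match the transcripts made was not tested.

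**Figure D3:**
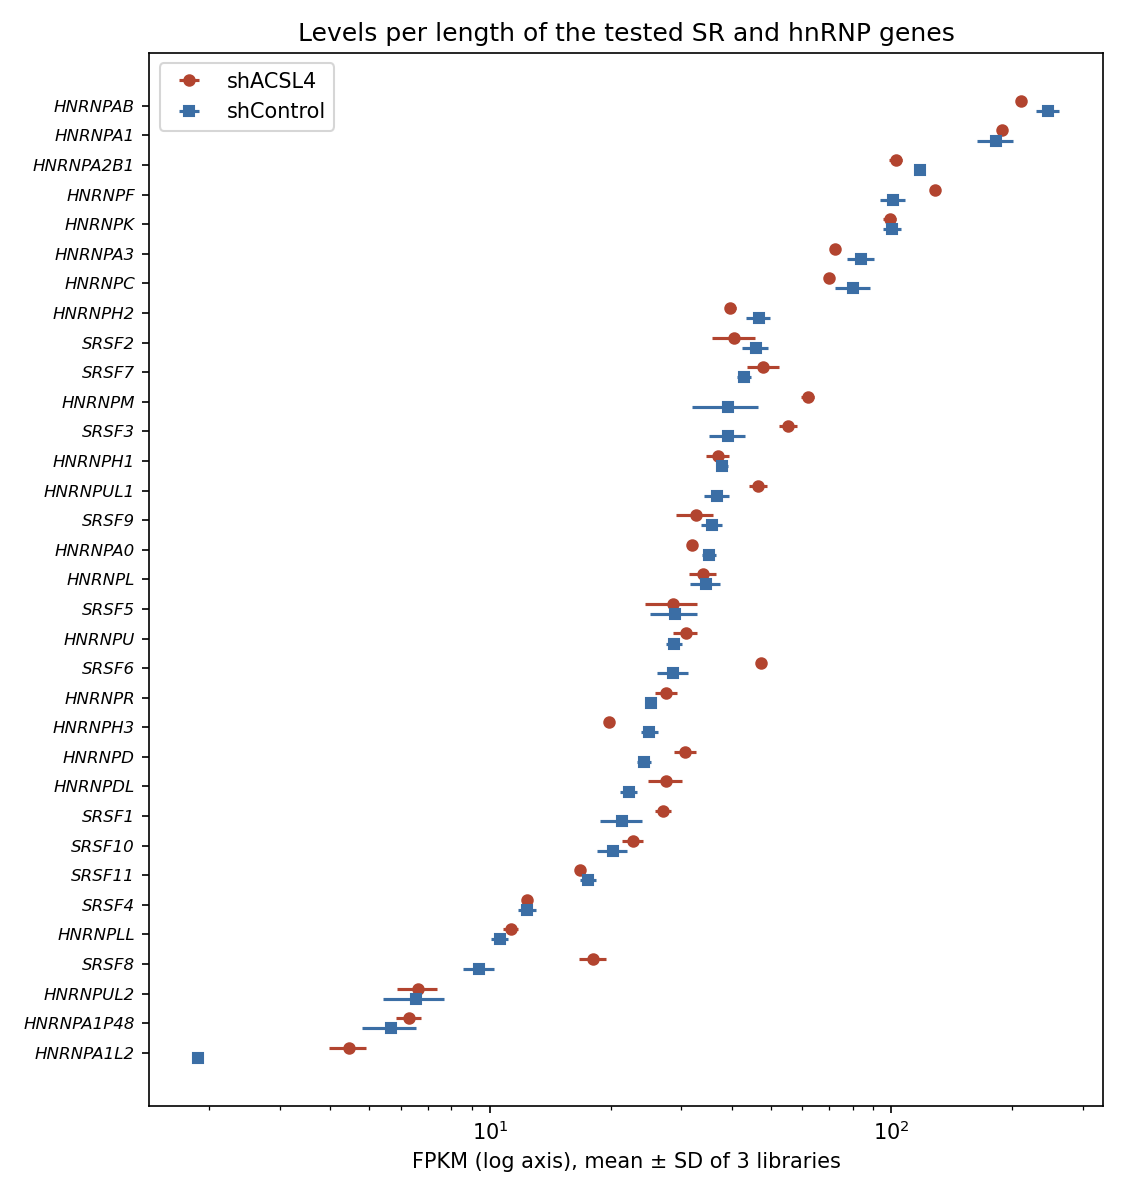
Deposited FPKM of the tested members in each group, mean and SD (n = 3 each), on a log axis. The order is led by HNRNPAB at 210.5 FPKM in shACSL4 and 245 FPKM in shControl, and HNRNPA1L2 is lowest at 4.45 and 1.87 FPKM.

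Added together, the SR genes took 1804, 1837 and 1989 CPM in shACSL4 libraries, against 1550, 1621 and 1609 CPM in shControl libraries. The hnRNP genes took 7535, 7464 and 7370 CPM in shACSL4 libraries, against 7373, 7742 and 7017 CPM in shControl libraries. The SR sums stood apart between the groups and the hnRNP sums overlapped. The SR sums include the 4 SR genes called higher. Among them, SRSF3 averaged 399 CPM in shACSL4 and 280 CPM in shControl libraries, and SRSF6 221 and 132 CPM. The SR sums and the ratios built on them therefore do not add to those 4 calls, and 7 tested SR genes were not called. Sums over other sets of genes were not computed. Within each library, the SR sum was 23.9, 24.6 and 27.0% of the hnRNP sum in shACSL4 cells and 21.0, 20.9 and 22.9% in shControl cells, a ratio that no scaling between libraries touches. From FPKM it was 26.0, 26.3 and 29.1% in shACSL4 cells and 22.8, 22.7 and 24.8% in shControl cells, again without overlap.

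The kinases that phosphorylate SR tails and nuclear import receptors, not all of them for SR proteins, were examined next. Of these 12 genes 3 were higher and 4 lower, which is 58.3% beside 47.2% of all genes, with a median of 0.07. CLK3, a nuclear kinase, averaged 61.3 ± 1.28 CPM in shACSL4 libraries and 106 ± 0.858 CPM in shControl libraries (SD, n = 3 each), a log2 fold change of -0.79 (SE 0.08, edgeR adjusted p = 6.30e-07). SRPK1, the main cytoplasmic SR kinase, averaged 259 ± 23.6 CPM in shACSL4 libraries and 398 ± 10.98 CPM in shControl libraries, a log2 fold change of -0.62 (SE 0.09, edgeR adjusted p = 3.18e-05). SRPK3, best known from muscle, had 62, 40 and 66 counts in shACSL4 libraries, against 5, 11 and 9 counts in shControl libraries, and rose by 2.70 on the log2 scale (SE 0.38, edgeR adjusted p = 2.46e-05). CLK3 and SRPK1 thus fell while the scarce SRPK3 rose. PRPF4B and the import receptor TNPO3, which carries SR proteins into the nucleus, did not pass the test (0.08, SE 0.09, and -0.10, SE 0.09).

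Among 28 SR-related proteins, which carry similar tails but were not members, 8 rose and 5 fell (46.4%), with a median of 0.10. BCLAF1 rose by 0.81 (SE 0.09, edgeR adjusted p = 2.65e-06), U2AF2, the subunit that recognises the polypyrimidine tract, by 0.66 (SE 0.08, edgeR adjusted p = 6.94e-06) and TRA2A, an exonic enhancer binder, by 0.60 (SE 0.08, edgeR adjusted p = 1.92e-05). The speckle proteins SRRM2 and SON, with the highest counts among those not called, were at 0.13 (SE 0.12) and 0.21 (SE 0.11). Of the 16 hnRNP proteins that carry other names, 15 were tested, with 2 higher and 3 lower (33.3%) and a median of -0.13. RBMXL1, a copy of RBMX, fell by 0.60 (SE 0.10, edgeR adjusted p = 0.000172) and EWSR1 fell by 0.27 (SE 0.09, edgeR adjusted p = 0.0180). The row used for MATR3 fell by 0.67 (SE 0.15, edgeR adjusted p = 0.00135). It held only 8.51 ± 0.755 CPM in shACSL4 libraries and 13.6 ± 1.98 CPM in shControl libraries (SD, n = 3 each). Listed genes were looked up by name, and only the first row of a name was used. Reads counted in any further row of the name MATR3 are therefore left out. The abundant PTBP1 (0.17, SE 0.09) and PTBP3 (-0.22, SE 0.09) did not pass the test.

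In the core spliceosome list 8 genes rose and 9 fell of 35 (48.6%), with a median of -0.08. PRPF19 (0.57, SE 0.09) and PRPF6 (0.62, SE 0.11) rose and SNRPA1 (-0.59, SE 0.09) fell, with edgeR adjusted p of 9.03e-05, 0.000210 and 8.05e-05. SF3B3 at 0.13 (SE 0.10) and SF3B1 at -0.22 (SE 0.09), subunits of the branch point complex, did not pass. Of 15 factors of nonsense-mediated decay and the exon junction complex 7 rose and 2 fell (60.0%), with a median of 0.23. UPF3A (0.43, SE 0.10) and SMG5 (0.37, SE 0.09) rose and the exon junction helicase EIF4A3 (-0.45, SE 0.09) fell, with edgeR adjusted p of 0.00248, 0.00201 and 0.000399, while UPF3B (-0.03, SE 0.08) did not pass. Of 22 other splicing regulators 19 were tested, with 6 higher and 3 lower (47.4%) and a median of 0.10, and RBFOX1, NOVA1 and NOVA2, known from neurons, were not tested for want of counts. KHDRBS3 (0.97, SE 0.13), MBNL3 (0.78, SE 0.11) and QKI (0.72, SE 0.13) rose, with edgeR adjusted p of 1.65e-05, 1.55e-05 and 0.000315. ESRP1 and RBM25 (-0.04, SE 0.09) were the most abundant of those not called.

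**Figure D4:**
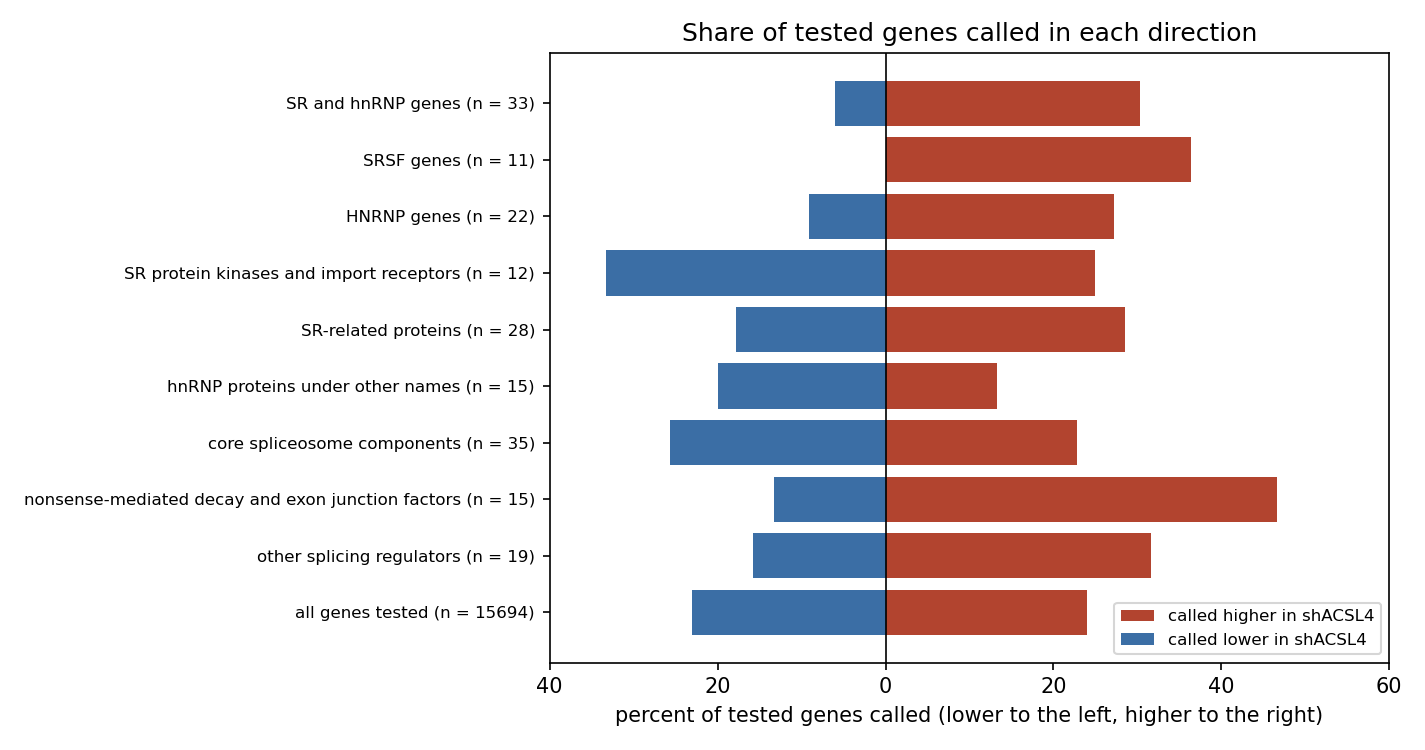
Percent of tested genes called higher and lower in shACSL4 over shControl for the SR genes, the hnRNP genes and 6 lists of related genes, beside all genes. The SR and hnRNP genes were both called in 36.4%, the factors of nonsense-mediated decay and the exon junction in 60.0% and all genes in 47.2%.

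Some of the hnRNP calls depended on whether neighbouring genes were subtracted. The median log2 fold change of the 51 nearest coding genes ran from -0.38 at SRSF1 to 0.51 at HNRNPF. Relative to these medians, 7 members were higher and 2 lower. The SR genes again had 4 higher, whereas the hnRNP genes had 3 higher, since HNRNPF, HNRNPUL1 and HNRNPDL no longer passed. HNRNPH2 was no longer called lower, and the 2 lower were HNRNPH3 and HNRNPA3, with HNRNPA3 at -0.32 (edgeR adjusted p = 0.00741). The values subtract a fixed median, so their p leaves out the spread of the neighbours, and the part of the neighbourhood in the results was not tested.

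**Figure D5:**
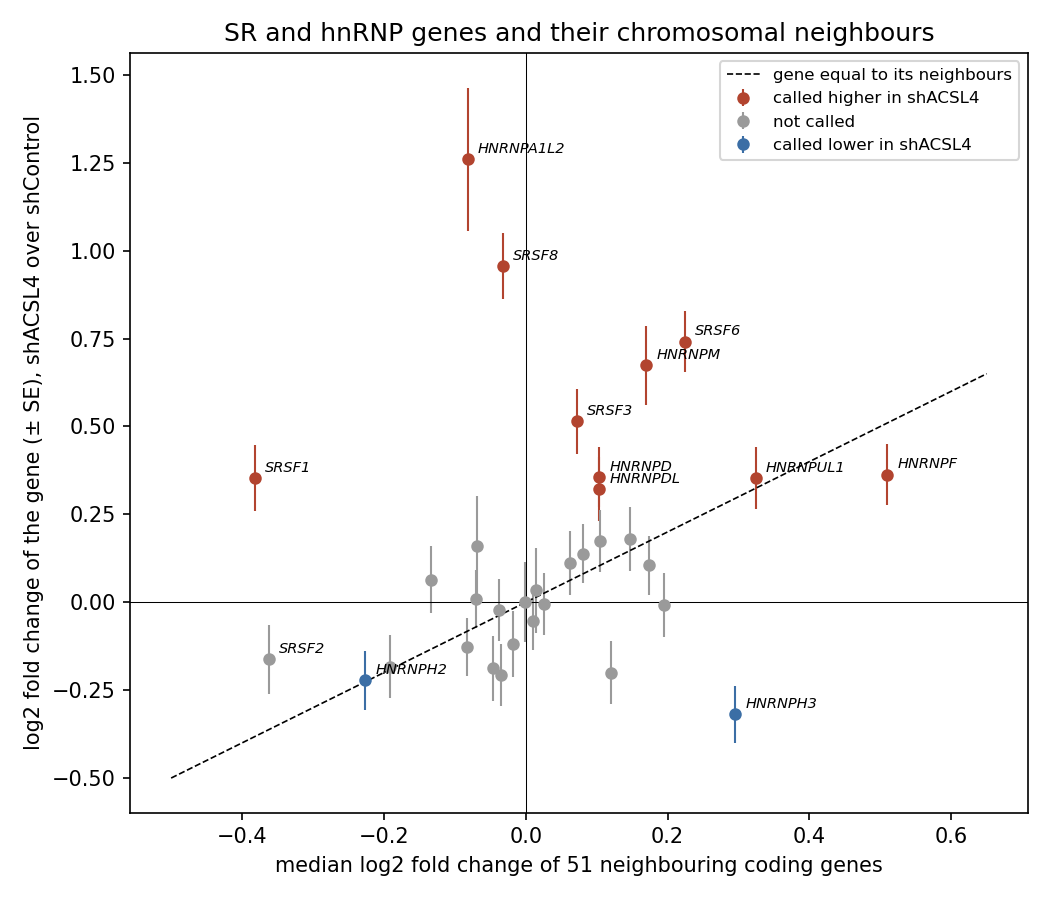
Log2 fold change (shACSL4 over shControl) of each tested member against the median of its 51 nearest coding genes. HNRNPF lies at 0.51 and HNRNPUL1 at 0.32 on the neighbour axis, near their own changes of 0.36 and 0.35, while SRSF8 and HNRNPA1L2 rise above neighbours close to 0.

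All 11 SR genes tested have at least 1 transcript annotated as a target of nonsense-mediated decay in GENCODE 29, as do 13 of the 22 hnRNP genes (59.1%) and 43.3% of the coding genes tested. Transcripts with a retained intron are annotated for 8 of 11 SR genes (72.7%), 14 of 22 hnRNP genes (63.6%) and 57.9% of the coding genes. The counts are per gene, so transcripts that make protein and transcripts of these kinds cannot be told apart in any value given here.

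Promoter windows of 250 bases before and 50 after the start were available from RefSeq (GRCh38.p14) for 30 of the 33 tested members. The E-box CACGTG, a palindrome, was found in windows of 7 members, which are 4 of the 10 that rose, 2 of the 2 that fell and 1 of the 18 that were not called, and 8 of the 44 windows of members (18.2%) hold it, beside 7.26% of all 35116 windows. The CCAAT box (CCAAT or ATTGG) was found in 19 members, 5 that rose, 2 that fell and 12 not called, and in 22 of the 44 windows of members, beside 34.6% of all windows. The GC box (GGGCGG or CCGCCC) was found in 21 members and in 61.4% of member windows, beside 44.95% of all windows. The ETS motif (CCGGAA or TTCCGG) was found in 8 members and 20.5% of member windows, beside 17.2% of all windows, and the palindromic cyclic AMP response element TGACGTCA in no member and 1.85% of all windows. Both strands were searched, and a match describes letters only. Shares by call were not computed for other genes, so the splits by call have nothing to be set against. The windows of the SR and hnRNP genes with the largest changes among those with at least 100 CPM are printed, SRSF6 (20:43457646-43457945), HNRNPM (19:8444725-8445024) and SRSF3 (6:36594112-36594411), all on the plus strand and 5′ to 3′. Capitals mark 3 GC boxes in SRSF6, 1 E-box in HNRNPM, and 2 CCAAT boxes, one on each strand, in SRSF3.
SRSF6: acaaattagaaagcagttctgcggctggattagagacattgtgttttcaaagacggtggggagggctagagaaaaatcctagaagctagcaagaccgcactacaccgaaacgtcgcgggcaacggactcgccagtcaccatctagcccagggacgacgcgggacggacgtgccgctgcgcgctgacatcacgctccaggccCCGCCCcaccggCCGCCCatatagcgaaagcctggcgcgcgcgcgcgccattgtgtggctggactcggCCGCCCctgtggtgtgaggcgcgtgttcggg
HNRNPM: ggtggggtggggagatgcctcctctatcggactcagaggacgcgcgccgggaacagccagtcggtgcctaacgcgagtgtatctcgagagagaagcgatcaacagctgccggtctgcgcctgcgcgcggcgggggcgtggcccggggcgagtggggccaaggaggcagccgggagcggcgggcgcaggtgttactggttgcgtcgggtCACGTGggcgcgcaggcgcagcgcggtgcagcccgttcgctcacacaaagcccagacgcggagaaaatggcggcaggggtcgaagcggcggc
SRSF3: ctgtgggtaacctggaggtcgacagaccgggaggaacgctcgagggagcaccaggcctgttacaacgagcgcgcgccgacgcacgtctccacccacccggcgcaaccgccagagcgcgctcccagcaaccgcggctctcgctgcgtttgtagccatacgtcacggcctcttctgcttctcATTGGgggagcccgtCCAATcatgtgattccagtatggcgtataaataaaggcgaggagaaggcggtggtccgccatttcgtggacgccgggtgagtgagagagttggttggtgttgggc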

How the data were processed

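RNA-seq libraries of T84 cells, 3 with a hairpin against ACSL4 and 3 with a control hairpin, were compared. The table deposited by the authors gives, per gene, raw counts and FPKM in each library, the length of the gene in bases, mean signal per group, log2 fold changes and p-values. Read counts are not normalized and FPKM are scaled by gene length and library depth, per the file headers. CASAVA, HISAT2 and the build GRCh38 (hg38) are named in the submitters' processing notes, while a counting tool, a strand setting and versions are not given in those notes. Control columns carry another prefix than the titles and were matched to them by number.

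The counts were tested with edgeR 4.0.16 in R 4.3.3 (filterByExpr, TMM factors, quasi-likelihood F test, 6 libraries, no covariate), and p-values were adjusted by Benjamini-Hochberg over 15694 genes, with calls at 0.05. Fold changes are shACSL4 over shControl, their SE is the size of the log2 fold change divided by the square root of F, and CPM use TMM-scaled totals. DESeq2 1.42.0 and limma 3.58.1 served as alternatives, with other scalings, filters (a mean of 50 counts, or any count), limma-trend on log2(FPKM + 1), a replicate block, subtraction of the median of 51 neighbouring coding genes, and each library left out. The test was tried on simulated counts. Each library held 14740383 to 17620630 counts, and 3 counts equal 0.171 to 0.201 CPM. From each list the text names at most 3 calls, those of lowest adjusted p, and at most 2 genes not called, those of highest mean count. Members and lists were chosen with earlier results of these data known. A gene that this rule names and a set of coding sequences are not reported here.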

Additional observations from a re-analysis of the deposited data

How the results depend on the processing

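Of the 12 called members 8 kept their call in all 15 alternatives, SRSF1, SRSF3, SRSF6, SRSF8, HNRNPM, HNRNPD and HNRNPA1L2 as higher and HNRNPH3 as lower. Of the 21 not called, 11 were called in no alternative, and 12 changed sign in some. The 2 members lower, both hnRNP genes, became 5 with DESeq2, 4 with limma-trend on log2(FPKM + 1), and 1 each without a filter and on library size, and ranged from 1 to 4 on leaving out a library (4 without shControl 3). The hnRNP genes higher were 3 relative to neighbouring genes in place of 6, and the SR genes lower ranged from 0 to 1 on leaving out a library. The count of members higher moved to 15 with library size alone and 7 relative to neighbours. With the replicate block the members had 10 higher and 2 lower, and 7414 genes were called over the whole table in place of 7400. Same-numbered libraries did not visibly deviate together (correlations of 0.0623, -0.00128 and 0.00753, against -0.0870 to 0.0703 between differently numbered libraries). A pairing with a weak effect could be missed this way.

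In the related lists, kinases and import receptors had 1 higher with limma-trend in place of 3. SR-related proteins lower were 2 with library size alone in place of 5, and 2 to 5 on leaving out a library. hnRNP proteins under other names higher, 2, were 1 with DESeq2, limma-trend or relative to neighbours, 0 with no filter, 4 with library size alone and 0 to 3 on leaving out a library, and those lower, 3, were 5 with DESeq2 or limma-trend and 2 to 4 on leaving out a library. Decay and exon junction factors higher, 7, were 3 with limma-trend and 4 to 8 on leaving out a library, and those lower, 2, were 1 with library size alone or relative to neighbours and 1 to 2 on leaving out a library. Other splicing regulators lower, 3, were 1 with library size alone and 1 to 3 on leaving out a library. The cause of these shifts was not tested.

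Sign changes of single members were small apart from those of HNRNPF and SRSF2. Relative to neighbours these were HNRNPA2B1 0.0071, HNRNPF -0.15, HNRNPH1 0.015, HNRNPH2 0.0050, HNRNPLL -0.069 and SRSF2 0.20. With library size alone they were HNRNPH1 0.097, HNRNPK 0.11, HNRNPL 0.11, SRSF11 0.064, SRSF5 0.12 and SRSF9 0.0024. With a mean of at least 50 counts they were HNRNPK 0.0067, HNRNPL 0.0035 and SRSF5 0.011. With no filter SRSF4 was at -0.0026. With limma-trend SRSF4 was at -0.0031. Leaving out a library gave -0.012 to 0.14 for HNRNPA1, -0.059 to 0.033 for HNRNPH1, -0.041 to 0.032 for HNRNPK, -0.078 to 0.053 for HNRNPL, -0.11 to 0.13 for HNRNPUL2, -0.028 to 0.044 for SRSF4 and -0.13 to 0.11 for SRSF5. The SE of the members was 0.08 to 0.20, so changes well under 0.2 on the log2 scale could not be told from the spread between libraries. Without knowledge of separate cultures, that spread may be technical.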

Other observations

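Pseudogene rows named after the members held few counts. The table lists 126 pseudogene rows named after members, of which 66 had a count, 12 were tested and 2 were higher in shACSL4 cells, HNRNPA1P59 (1.24, SE 0.47, edgeR adjusted p = 0.0400) and HNRNPH1P1 (1.16, SE 0.45, edgeR adjusted p = 0.0434), with a mean of 14.8 and 10.0 counts. These 2 were named after their values were seen. HNRNPA1P59 had 25, 24 and 14 counts in shACSL4 libraries, against 16, 6 and 4 in shControl libraries. Its groups overlapped in CPM and those of HNRNPH1P1 did not. Over all genes tested, 24.0% were higher and the groups did not overlap in 55.1%. The row of highest count, HNRNPCP2, had 122, 177 and 157 counts in shACSL4 libraries, against 196, 186 and 156 in shControl libraries, and did not pass the test (-0.28, SE 0.15, edgeR adjusted p = 0.127). All 126 rows together held 691, 777 and 695 counts in shACSL4 libraries, against 742, 782 and 701 in shControl libraries. The 74 rows named after HNRNPA1 came to 1.67, 1.62 and 1.77% of HNRNPA1 counts in shACSL4 libraries, against 1.44, 1.77 and 1.97% in shControl libraries. The ratio of these rows to HNRNPA1 overlapped between the groups, whereas that of HNRNPA1L2 to HNRNPA1 did not. Both ratios are uncertain to the extent that reads common to HNRNPA1 and its copies were left out or split. Which gene such reads came from was not tested.

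In the authors' deposited table, 10 of the 33 members were higher and 5 lower at an adjusted p of 0.05, the same call as with edgeR in 30. The 3 others, HNRNPA2B1, HNRNPA3 and HNRNPAB, were lower there. Fold changes in the authors' deposited table lay within 0.015 of those of edgeR on the log2 scale.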
